A study of Komagataella phaffii with 18 samples.

Results

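Cells of the yeast Komagataella phaffii that are locked in the a mating type were compared with cells locked in the α mating type while both grew in YPD, a rich medium of yeast extract, peptone and glucose. The comparison rests on 6 of the 18 RNA sequencing libraries, chosen by strain and medium: 3 of the heterothallic a-type strain, labelled dic1-2Δ(a), and 3 of the heterothallic α-type strain, labelled dic1-2Δ(α). Both are derivatives of strain CBS2612, were harvested in exponential growth, and carry the dic1-2Δ genotype. CBS2612 labelled wild type in YPD (3 libraries) gave a further level beside theirs. The remaining 9 libraries came from the 3 strains after the YPD cultures had been moved to acetate medium for 24 h to bring on the mating programme. Each mating type was represented by 1 strain, so what belongs to the mating type and what to the strain cannot be told apart. No label says that replicates were separate cultures, and the p-values below therefore cover only the spread among these libraries, which may be technical.

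In yeasts of this kind a cell is of type a or α according to which mating-type locus genes it transcribes. Those genes encode regulators that set which pheromone the cell makes and which receptor it displays. In K. phaffii the locus lies on chromosome 4, and the wild type switches type by inverting a stretch of that chromosome, so that genes of one type are moved to an active site and genes of the other to a silent one. Mating genes are induced mainly when nutrients run out, and YPD is therefore the medium in which a marker of type is least aided by induction. Heterothallic means that a strain keeps 1 type and needs a partner of the other.

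The values are estimated counts per feature, a feature being one of the 5341 annotated sequences in the deposited tables. The files give the features only as IDs, and 0 of the 5341 IDs matched the gene table of another strain, so no gene name or function is given here and the chromosome is read from the ID. The known regulators, receptors and pheromone genes could not be located by ID, nor could the gene behind dic1-2Δ, so neither the deletion nor the mating type of a library was checked.

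Depth was low in every YPD library. Total estimated counts were 282935, 309362 and 283133 in the a-type libraries and 298856, 263106 and 286554 in the α-type libraries. The acetate libraries held between 637339 and 765524. The libraries did not sort by mating type. Correlations of log2 CPM (CPM, the count scaled by the size of its library) across features were 0.796 to 0.880 among a-type libraries, 0.840 to 0.891 among α-type libraries and 0.821 to 0.921 between the types. The closest pair of all was a-type replicate 3 with α-type replicate 1. Replicate 1 of the a-type stood apart from the rest, with correlations of 0.796 to 0.844 to the other 5, so values without it are given beside those that rest on it. Without it the same number of features, 2, passed the test described next. No pair of libraries agreed within sampling noise, since the chi-square per degree of freedom was at least 2.79.

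Very few features were called different between the a-type and α-type strains in YPD. Of 3646 features with enough counts to be tested, 2 passed an adjusted p of 0.05 (0.0549%), both higher in a-type cells and both carrying chromosome 4 IDs. No feature passed in the other direction, that is, lower in a-type than in α-type cells. These calls come from edgeR's quasi-likelihood test with Benjamini-Hochberg adjustment over all features tested. At an unadjusted p under 0.05 there were 49 features (1.34%), 30 higher and 19 lower in a-type, where 5% of those tested would be 182. DESeq2 called 2 higher and 1 lower. Across all tested features the median log2 fold change of a-type over α-type was 0.00, and 90% of values fell between -0.63 and 0.65.

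PP7435_Chr4-1037, with a coding length of 537 bases, rose in a-type cells and was at or near 0 in α-type cells. Its estimated counts were 120, 81 and 72 in the a-type libraries, against 0, 1 and 0 in the α-type libraries. On the scaled level this was 306.2 ± 94.0 CPM in a-type cells, against 1.34 ± 2.33 CPM in α-type cells (SD, n = 3 each). All 3 a-type libraries lay far above every α-type library, and the α-type mean lay under the level that 3 counts over the group stand for, 3.63 CPM. The fitted log2 fold change was 7.52 ± 0.68 (SE; 95% interval 6.08 to 8.97; edgeR adjusted p = 4.62e-05). Because a single α-type count sets the denominator, the ratio of scaled counts is better given with its counting interval, 251.3 with bounds of 44.7 and 9961. Per length, the feature was among the more abundant in a-type cells, at 731.7 TPM, a length-corrected share of all transcripts, and percentile 95.2 of all features, against 3.29 TPM and percentile 4.64 in α-type cells. Without a-type replicate 1 the log2 fold change was 7.24 (adjusted p = 0.000103).

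The wild type held PP7435_Chr4-1037 low. Its counts in YPD were 1, 2 and 2, or 6.74 ± 3.05 CPM (SD, n = 3), and a-type cells were higher by 5.46 ± 0.55 log2 (SE; edgeR adjusted p = 0.000226; 2 features, 0.0549%, passed in that comparison). The log2 fold change of α-type over wild type was -2.06 (95% interval -4.32 to 0.20; adjusted p = 0.999), an interval wide enough to hold both no difference and a large one. In acetate the a-type level was 143.5 ± 19.8 CPM (SD, n = 3) and all 3 α-type libraries had 0 counts, so with 3 counts over the group as the floor the a-type level was at least 109.7-fold higher. PP7435_Chr4-1037 was therefore at or under 3 counts over the α-type group in both media.

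PP7435_Chr4-1169, with a coding length of 1191 bases, was the other feature that rose in a-type cells. Its counts were 224, 101 and 121 in the a-type libraries, against 15, 20 and 13 in the α-type libraries, which is 504.7 ± 241.5 CPM in a-type cells, against 59.1 ± 18.8 CPM in α-type cells (SD, n = 3 each). The groups did not overlap, but a-type replicate 1 was well above the other a-type libraries. The α-type cells clearly had this transcript, unlike the feature above. The log2 fold change was 3.09 ± 0.42 (SE; 95% interval 2.20 to 3.98; edgeR adjusted p = 0.00391), or 8.53-fold. Without a-type replicate 1 it was 2.65 (adjusted p = 0.00638). The call was lost without α-type replicate 1 (adjusted p = 0.0821) or α-type replicate 3 (adjusted p = 0.0701), while the log2 fold changes stayed at 2.98 and 2.95.

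The wild type had 757.4 ± 161.4 CPM of PP7435_Chr4-1169 in YPD (SD, n = 3), and a-type over wild type was -0.59 log2 (95% interval -1.36 to 0.19; edgeR adjusted p = 0.929). The α-type level lay below the wild type by a log2 fold change of -3.68 ± 0.42 (SE; edgeR adjusted p = 0.00112), the 1 call in that comparison (0.0274%). In acetate the same direction passed the test at a smaller size, 181.7 ± 31.0 CPM in a-type cells, against 78.4 ± 2.46 CPM in α-type cells (SD, n = 3 each; log2 fold change 1.21 ± 0.17 SE; edgeR adjusted p = 2.4e-07). The wild type in acetate had 1119 ± 85.0 CPM (SD, n = 3), above every library of both types there. The difference in log2 fold change between YPD and acetate was 1.90 ± 0.44 (SE), with an edgeR adjusted p of 0.121 for the interaction (7 of all features passed that test, 0.146%), so the sizes in the 2 media were not shown to differ.

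**Figure D1:**
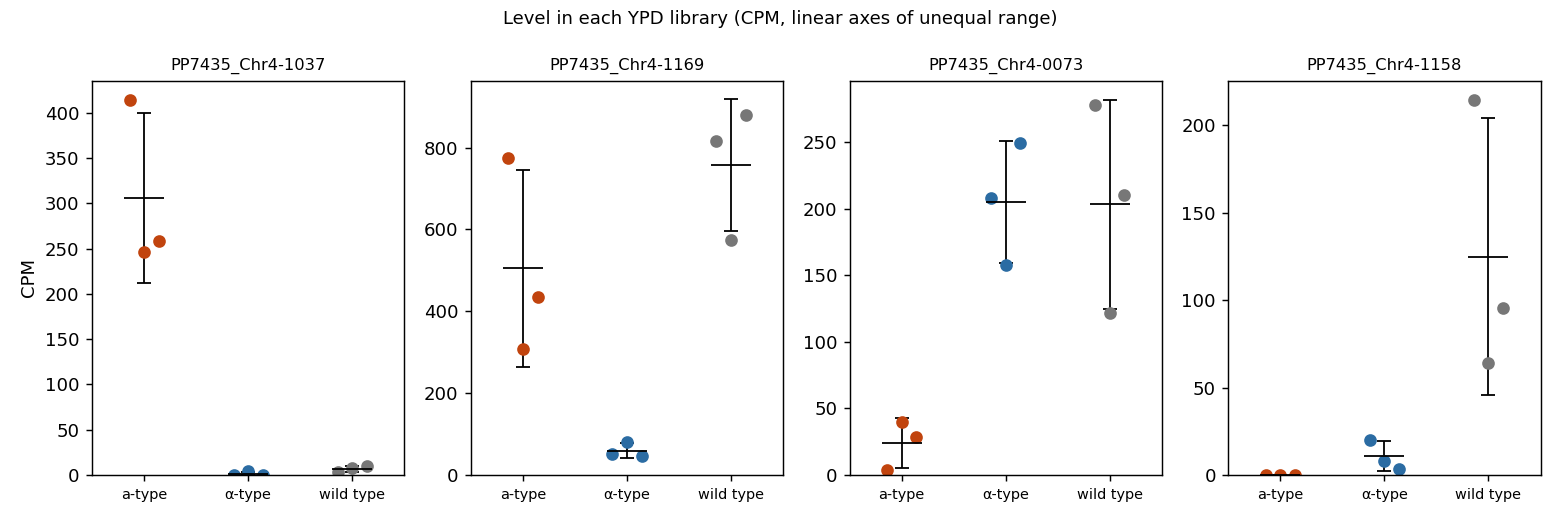
Level in CPM (linear axes of unequal range) of the 4 features with the largest fitted fold changes, in each YPD library. Points are the 3 replicates of a-type, α-type and wild type in order from 1 to 3, horizontal bars are means and whiskers 1 SD, shortened at 0; PP7435_Chr4-1037 is high in a-type alone, while in the other panels the wild type has means of 757.4, 203.4 and 124.9 CPM.

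The nearest candidate for an α-type marker just missed the threshold. PP7435_Chr4-0073, with a coding length of 573 bases, had counts of 1, 13 and 8 in the a-type libraries, against 62, 39 and 70 in the α-type libraries. The levels were 23.9 ± 18.5 CPM in a-type cells, against 204.9 ± 46.0 CPM in α-type cells (SD, n = 3 each), and every a-type library lay below every α-type library. The log2 fold change was -3.06 ± 0.54 (SE; 95% interval -4.22 to -1.90; edgeR adjusted p = 0.0581). Over 23 alternative settings it passed in 5, among them DESeq2 (adjusted p = 3.5e-05) and a fit of all 18 libraries (adjusted p = 0.000368, 1 of 3 calls, 0.0627% of the features tested there), with adjusted p-values of up to 0.334 in the others. Without a-type replicate 1, the library with a single count, the log2 fold change was -2.57 (adjusted p = 0.0842). The fit of all 18 libraries shared 1 spread with the acetate libraries, whose replicates spread less than those in YPD. Its SE for PP7435_Chr4-0073 was 0.43.

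The wild type had 203.4 ± 78.6 CPM of PP7435_Chr4-0073 in YPD (SD, n = 3). The log2 fold change of α-type over wild type was 0.01 (95% interval -0.97 to 0.99), and that of a-type over wild type was -3.05 (edgeR adjusted p = 0.0622). In acetate, where counts were higher, it passed clearly: 45.9 ± 10.2 CPM in a-type cells, against 201.8 ± 31.5 CPM in α-type cells (SD, n = 3 each; log2 fold change -2.13 ± 0.21 SE; edgeR adjusted p = 3.23e-12). The difference between the media, -0.94, had an edgeR adjusted p of 1 (95% interval -2.11 to 0.22). Per length, the α-type level of PP7435_Chr4-0073 in YPD, 425.2 TPM, was of the same order as the a-type levels of PP7435_Chr4-1037 and PP7435_Chr4-1169, 731.7 and 314.4 TPM.

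PP7435_Chr4-1158, with a coding length of 522 bases, had few counts in either type in YPD. It had 0 counts in all 3 a-type YPD libraries and 6, 2 and 1 counts in the α-type YPD libraries, a mean of 10.6 ± 8.58 CPM in α-type (SD, n = 3). With 3 counts over the group as the floor, a-type cells were at least 3.26-fold lower. That bound rests on α-type replicate 1: without it 3 α-type counts remain, both types are at or under the floor, and no fold can be given. The test did not call it (edgeR adjusted p = 0.997). In acetate the a-type libraries again had 0 counts, but the α-type libraries summed to 871, so by the same floor a-type cells were at least 273.5-fold lower. The wild type in YPD had 61, 18 and 20 counts, or 124.9 ± 79.4 CPM (SD, n = 3). It was the only one of the 20 features at 0 in one YPD group and above 3 counts in the other that passed the expression filter, which it did through the wild-type libraries; its comparisons with the wild type were fixed by that filter and are not given.

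These 4 features were the only tested ones with a fitted log2 fold change of 2 or more in size. All 4 have chromosome 4 IDs, as do 19.5% of the features tested. PP7435_Chr4-1158 was among them only because the wild type took it past the filter. Its fitted value rests on 0 a-type counts, so it is no further case. Among features lower in a-type with replicates that did not overlap, the next by p after PP7435_Chr4-0073 was on chromosome 1. This feature, with a coding length of 927 bases, had 34.4 ± 13.5 CPM in a-type cells, against 91.7 ± 19.2 CPM in α-type cells (SD, n = 3 each). Its log2 fold change was -1.40 ± 0.41 (SE), with an edgeR adjusted p of 0.997 in YPD and 0.796 in acetate. From the 4th rank onwards every adjusted p was at least 0.997, so a wide gap separated the 3 lowest p-values from all others.

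**Figure D2:**
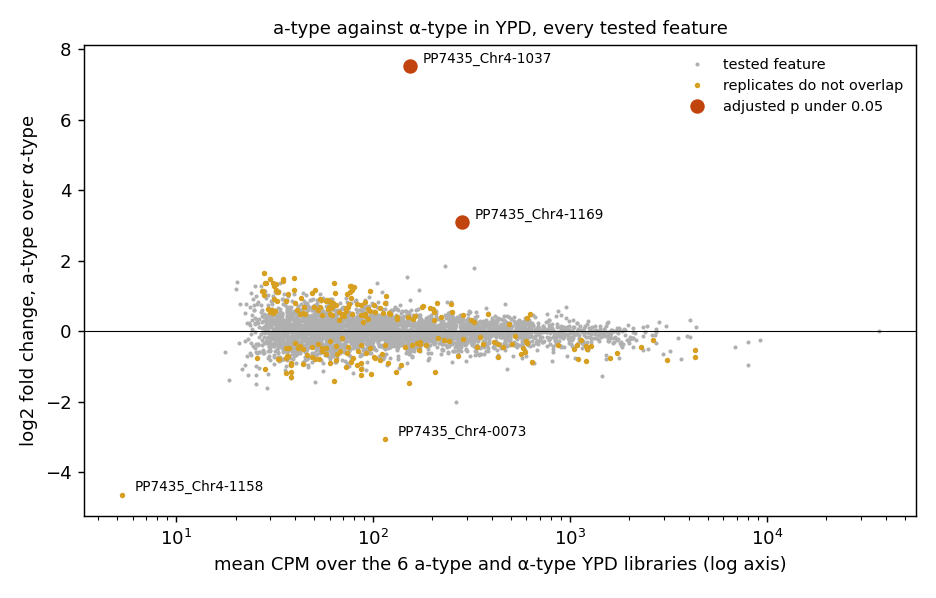
Log2 fold change of a-type over α-type in YPD against mean CPM (log axis) for all 3646 tested features. The 2 called features are the large points, features whose replicates do not overlap are coloured, and the 4 labelled features lie outside the band between -2 and 2; the fitted value of PP7435_Chr4-1158 rests on 0 a-type counts and is no bound.

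In 224 of the 3646 features (6.14%) the 3 a-type values lay all above or all below the 3 α-type values, 117 higher (3.21%) and 107 lower (2.93%) in a-type. That split moved with the scaling: with total counts only it was 160 higher and 68 lower, and with upper-quartile scaling 141 higher and 82 lower. The chromosomes were much alike, with 2.67% higher and 2.48% lower on chromosome 1, 3.71% and 3.29% on chromosome 2, 3.21% and 3.43% on chromosome 3, and 3.38% and 2.54% on chromosome 4. A log2 fold change of 1 or more in size was reached by 90 of all tested features (2.47%), 27 on chromosome 1 (2.48%), 18 on chromosome 2 (1.91%), 23 on chromosome 3 (2.55%) and 22 on chromosome 4 (3.10%).

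How low the floor lay was first a matter of single reads. In one library 3 counts stood for 10.4, 9.11 and 10.8 CPM in the a-type libraries, against 10.1, 12.1 and 10.7 CPM in the α-type libraries. A value of 3 is about the upper 95% limit on the expected count where 0 are seen. Summed over 3 libraries the floor came down to 3.34 CPM in a-type cells, against 3.63 CPM in α-type cells. These floors cover counting error only, and the least folds given above take the higher group's counts without their error. The median feature had 15, 19 and 14 counts in the a-type libraries, against 16, 13 and 15 counts in the α-type libraries. Between 681 and 975 features had 3 counts or fewer in an a-type library, and between 863 and 1030 in an α-type library.

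**Figure D3:**
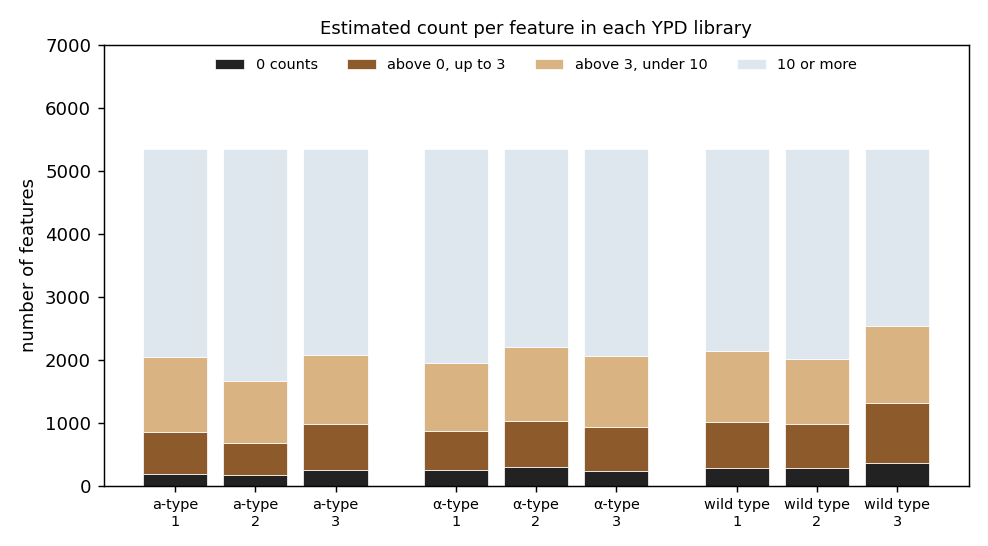
Number of features by estimated count in each YPD library, for a-type, α-type and wild type replicates. Each bar adds up to 5341 features; the dark parts, features at 0, hold 172 to 244 features in a-type, 238 to 305 in α-type and 278 to 363 in wild type.

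Over the whole group, 47 features were at 0 in all 3 a-type libraries and 62 in all 3 α-type libraries, 24 of them in both. Of these 24, 16 had counts in the acetate libraries of the same strains and 7 had 10 or more there. A pair of near-identical features of 918 bases on chromosome 4 was at 0 in all 12 a-type and α-type libraries of both media, but each copy had 6 estimated counts in the wild type in YPD and 69.5 in the wild type in acetate.

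In YPD 14 features were at 0 in α-type and above 3 counts in a-type, with at most 13 counts summed over the a-type libraries, and 6 were the other way round, with at most 9 counts over the α-type libraries. Of these 20, 18 had counts in acetate in the very type that had none in YPD. The exceptions were PP7435_Chr4-1158 and 1 mitochondrial feature, noticed after its values were seen, with 4 counts in a-type in YPD and 9 in a-type in acetate.

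The filter on low counts left out 1695 features in YPD, which held 2.52% of the a-type and α-type counts, against 641 features in acetate. Of those left out in YPD, 1134 averaged 10 or more counts in the acetate libraries of at least one of the strains. Among tested features the standard error fell with the count. Its median was 0.62 log2 for a mean under 10 counts, 0.42 for 20 to 50 counts and 0.30 for 500 or more. At those errors, the fold that 1 more feature would have needed to pass was 11.5 under 10 counts, 5.21 at 20 to 50 counts and 3.23 at 500 or more. In acetate the same bins needed 3.78, 2.13 and 1.33. These folds reflect the cutoff as well as the error, because more calls in acetate made the unadjusted p needed there less strict. At a median error of 0.42 log2, the fold was 5.21 in YPD (20 to 50 counts), against 2.89 in acetate (10 to 20). Replicates also spread more in YPD: the common biological coefficient of variation was 34.9% in YPD and 12.9% in acetate. At the median error in YPD, 0.43 log2, a feature needed a 5.48-fold difference.

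**Figure D4:**
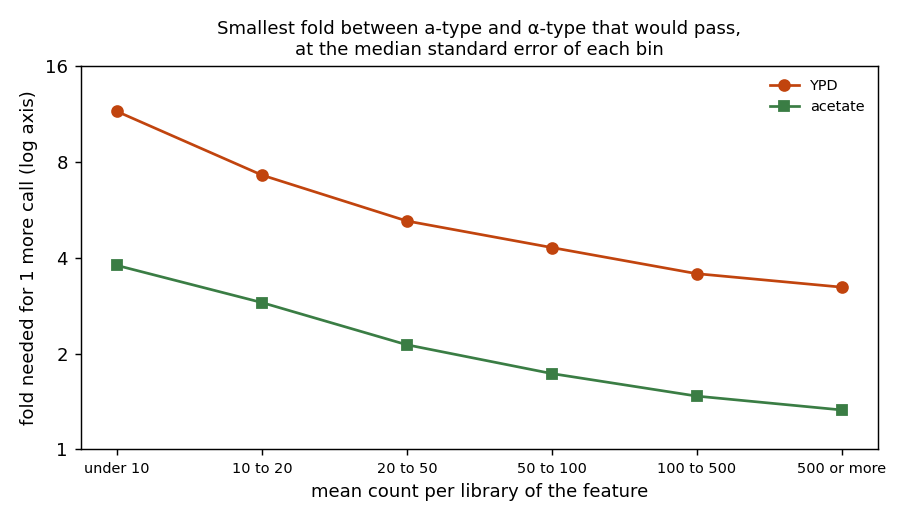
Fold between a-type and α-type that 1 more feature would need to pass an adjusted p of 0.05 (log axis), at the median standard error of each bin of mean count, in YPD and in acetate. In YPD the fold runs from 11.5 in the lowest bin to 3.23 in the highest, and in acetate from 3.78 to 1.33. The unadjusted p needed is less strict in acetate, where more features were called, so the gap is not of error alone.

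The acetate libraries show which features differed between the a-type and α-type strains after 24 h in acetate, and so which ones could have been sought in YPD. Whether mating was induced in them was not checked. In acetate 55 of 4700 tested features passed (1.17%), 14 higher (0.298%) and 41 lower (0.872%) in a-type. Of these 55, 38 could be tested in YPD and 2 passed there, PP7435_Chr4-1037 and PP7435_Chr4-1169. The sign was the same in both media for 24 of the 38, where 50.2% of all tested features in YPD had a log2 fold change above 0. For the 11 tested features higher in a-type in acetate, the median log2 fold change was 0.13 in YPD, beside 1.08 in acetate. For the 27 tested features lower in a-type it was -0.03 in YPD, beside -0.77 in acetate. Per the labels, cultures were sampled in YPD and then moved to acetate, but same-numbered YPD and acetate libraries of a type deviated together only at correlations of -0.07 to 0.09. The tests of a difference between media treat all libraries as independent.

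For 35 of the 38 a YPD interval could be set against the acetate value, the other 3 having 0 counts in a group. In 19 of them the 95% interval held both 0 and the acetate value, so the YPD data could not tell absence of a difference from one as large as in acetate. In 13 it held 0 but not the acetate value, whose own error was not counted, so this tests no difference between media. In 2 it held the acetate value and not 0: PP7435_Chr4-0073, and one of 2 near-identical copies on chromosome 4, between which reads are divided, so that its value is uncertain (108.1 ± 52.1 CPM in a-type cells, against 44.4 ± 8.11 CPM in α-type cells, SD, n = 3 each; log2 fold change 1.27; edgeR adjusted p = 0.997). The a-type value of that copy was highest in replicate 1, and without it the log2 fold change was 0.83 ± 0.44 (SE; edgeR adjusted p = 1). With both copies summed, the YPD log2 fold change was 0.83 ± 0.35 (SE; edgeR adjusted p = 0.998). The acetate value of that copy rests on the same division of reads, so its match between media cannot be interpreted. Only for PP7435_Chr4-1169 did the YPD interval hold neither.

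**Figure D5:**
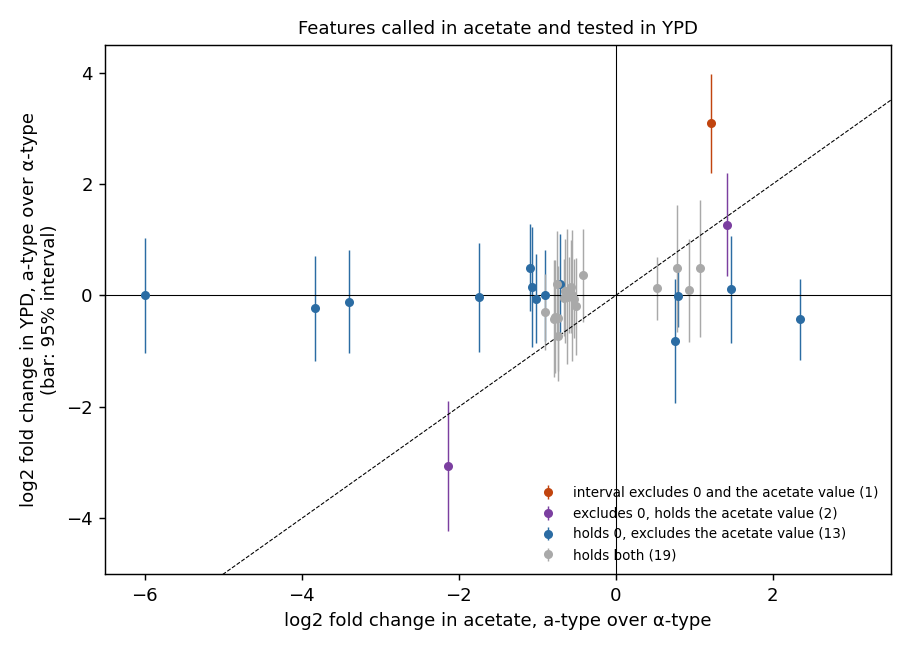
Log2 fold change of a-type over α-type in YPD, with its 95% interval, against that in acetate, for the 35 features called in acetate that were tested in YPD and had counts in every group. The dashed line marks equal values; most points lie along 0 on the YPD axis, including the one at -5.99 in acetate.

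Among features with at least 10 CPM in the higher acetate group and acetate replicates that did not overlap, the 5 with the largest acetate differences each way were examined in YPD, and the one feature that passed in YPD was PP7435_Chr4-1037. PP7435_Chr4-0893, 1065 bases long, had 0 counts over the a-type libraries and 1 count over the α-type libraries in YPD, which leaves both types at or under the floor and gives no fold. In acetate it had 789.4 ± 125.7 CPM in a-type cells, against 16.2 ± 9.61 CPM in α-type cells (SD, n = 3 each; log2 fold change 5.56; edgeR adjusted p = 2.67e-31). PP7435_Chr3-2788, 3321 bases long, was well above the floor in YPD, with counts of 36, 39 and 48 in the a-type libraries, against 61, 30 and 64 in the α-type libraries. The groups overlapped, and the log2 fold change was -0.42 (95% interval -1.15 to 0.30), beside 2.35 ± 0.14 (SE) in acetate. The YPD interval excluded the acetate value. Without a-type replicate 1 the YPD log2 fold change was -0.35.

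PP7435_Chr2-0522, 1197 bases long, had YPD counts of 12, 14 and 7 in the a-type libraries, against 5, 4 and 5 in the α-type libraries. Its levels were 36.3 ± 9.76 CPM in a-type cells, against 16.9 ± 0.836 CPM in α-type cells (SD, n = 3 each), and all 3 a-type values were above the α-type values. The counts were too few for the YPD filter, and in the fit of all 18 libraries the YPD log2 fold change was 1.09 ± 0.37 (SE; edgeR adjusted p = 0.954). In acetate the order was the opposite, with 43.5 ± 7.05 CPM in a-type cells, against 12105 ± 737.7 CPM in α-type cells (SD, n = 3 each; log2 fold change -8.11; edgeR adjusted p = 9.6e-50). Its neighbour by ID, PP7435_Chr2-0521, 474 bases long, had 83.5 ± 50.4 CPM in a-type cells, against 83.0 ± 23.6 CPM in α-type cells, in YPD (SD, n = 3 each), a log2 fold change of 0.01 (95% interval -1.03 to 1.04), or -0.60 ± 0.49 (SE) without a-type replicate 1. In acetate it had 72.8 ± 17.2 CPM in a-type cells, against 4641 ± 217.0 CPM in α-type cells (SD, n = 3 each; log2 fold change -5.99; edgeR adjusted p = 8.99e-45). Acetate and YPD levels were each scaled within their own medium.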

How the data were processed

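Polyadenylated RNA was sequenced in 18 libraries of 6 groups of 3, per the labels. The authors deposited 1 kallisto table per sample with estimated counts and TPM, per the file headers. Per the submitters' processing notes the tools were kallisto, DESeq2, TopHat2, SAMtools, Trim Galore 0.4.2 and FastQC 0.11.2, with no roles stated. For the genome build, the sources used here give nothing. A deposited table of the authors' normalized values for the YPD contrast, a scaled signal, served only as an alternative. The other 8 such tables were not used. Nothing in the sources says whether counting used strand, so overlapping features may share reads.

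Rounded estimated counts entered edgeR 4.0.16 under R 4.3.3 (filterByExpr, TMM, quasi-likelihood, Benjamini-Hochberg, threshold 0.05, two-sided), on the 9 YPD libraries with 1 mean per group. The acetate contrast was fitted likewise on its 9 libraries, and differences between media on all 18. Alternatives used DESeq2 1.42.0 and limma 3.58.1, among others. CPM are counts over TMM-scaled totals within a medium. TPM entered no test. The procedure was tested on simulated data.

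The features and settings were chosen with earlier results of these data known. The rule took features called in YPD or under another fit, and the next by p among those lower in a-type. It also took the 5 largest called acetate differences each way whose acetate replicates separate and reach 10 CPM in one type. Features noted earlier were added. As IDs have no names, only some are printed and the rest are given by chromosome and length.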

Additional observations from a re-analysis of the deposited data

Results flagged for a closer look

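For 6 of the features described, the log2 fold change of a-type over α-type differed between YPD and acetate by edgeR's interaction test over all 18 libraries. In all, 7 of 4783 tested features passed (0.146%), the 7th lying outside the rule for features described. The difference, YPD minus acetate, was -3.38 for PP7435_Chr3-0313 (edgeR adjusted p = 0.0228) and -2.78 for PP7435_Chr3-2788 (adjusted p = 3.61e-05), both higher in a-type in acetate and with overlapping groups in YPD. PP7435_Chr3-0313 had 16 counts over the a-type libraries and 18 over the α-type libraries in YPD. The difference was 9.21 for PP7435_Chr2-0522 (adjusted p = 4.86e-13) and 6.0 for PP7435_Chr2-0521 (adjusted p = 2.13e-08), both lower in a-type in acetate. It was 3.94 for a chromosome 3 feature of 1128 bases (adjusted p = 0.00752), with 13 counts over the a-type and 20 over the α-type YPD libraries. For a chromosome 3 feature of 639 bases it was 3.59 (adjusted p = 3.21e-05), with 130.9 ± 44.7 CPM in a-type cells, against 154.4 ± 60.1 CPM in α-type cells, in YPD (SD, n = 3 each). The fit of all 18 libraries shared 1 spread between media. The common biological coefficient of variation was 34.9% in YPD and 12.9% in acetate. With each medium's spread from its own edgeR fit, the adjusted p was 0.00211 for PP7435_Chr3-2788, 1.81e-05 for PP7435_Chr2-0521 and 0.00211 for the 639-base feature. The other features here were too low in YPD for that fit.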

How the results depend on the processing

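Over 23 alternatives to the YPD contrast, 1 to 3 features passed. The fit of the authors' values and, for single features, the summing of near-identical copies were chosen after seeing the data. PP7435_Chr4-1037 passed in 23 and PP7435_Chr4-1169 in 21. Leaving out 1 library at a time gave 1 to 3 calls, with 1 call without α-type replicate 1 or 3. No pairing of the samples by replicate number was seen (same-numbered deviations correlated at -0.17, -0.17 and -0.39), and with the replicate block the same 2 features passed. The acetate list went to 19 features with 18 libraries in one fit, to 13 with a test for changes beyond 2-fold, and to 36 to 60 with 1 library left out. Features with replicates that do not overlap numbered 357 with no filter, and one-sided zeros numbered 2 with a floor of 10 counts.

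Signs turned for 4 of the features described, all uncalled in YPD. PP7435_Chr2-0521 was at -0.02 with no filter, -0.11 with limma-voom, -0.14 with the replicate block, -0.11 on the authors' values and -0.60 to 0.26 with 1 library left out. The chromosome 3 features of 3765 and 639 bases ran from -0.20 to 0.38 and from -0.50 to 0.11 with 1 library left out. The other near-identical chromosome 4 copy, 3138 bases long, was at -1.0 with limma-voom, -0.08 with the block, -0.79 on the authors' values and -0.57 to 0.77 with 1 library left out; the cause was not tested. A missed call in YPD is no sign of equal levels. In 13 of 35 features of the acetate list the YPD interval excluded the acetate value while holding 0. The error of the acetate value was not counted there, so that count by itself shows no difference between media. By the interaction test, 7 of 4783 tested features differed between media (0.146%). Among them were members of those 13, such as PP7435_Chr2-0521, PP7435_Chr3-2788 and the chromosome 3 feature of 639 bases.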
